A study of Mus musculus with 6 samples.

Results

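The 42 genes described here encode the contractile and calcium-handling machinery of skeletal muscle: myosin, actin, troponin and tropomyosin chains, proteins of the Z-disc and of the titin and nebulin scaffold, calcium pumps, channels and stores, enzymes of energy supply, and the myogenic factors Myog and Myod1. They were chosen by name and sorted into 13 genes of fast fibres, 6 of slow fibres, 4 of embryonic or neonatal muscle and 19 shared by striated fibres. Each gene was read by the probe set annotated to that gene alone that had the highest mean over all arrays. A probe set was found for 42 of 42 genes, out of 18193 genes on the array, and 34 of the 42 passed the filter on low levels that left 10916 genes to be tested. Of these 34, 2 (Myh2 and Lmod2) had a knockout mean under the filter and so passed through the control arrays. The samples were osteocytes, the cells embedded in bone matrix, from the calvaria of C57/BL6 females of 10 to 12 days with a Dmp1-GFP transgene, in which the Dmp1 promoter drives green fluorescent protein. All 6 arrays share that reporter, 6 digestions of 30 min of which fractions 4 to 6 were kept, and a sort for green cells. Per the protocol, 10% to 15% of the cells of Dmp1-GFP mice fell in the gate, as did 0.8% to 1.0% of those of mice without the transgene. The knockout group holds 3 arrays of osteocyte-specific estrogen receptor alpha (ERα) knockout, written ERαΔOcy/ΔOcy in the extraction protocol, and the control group 3 arrays of littermates labelled WT, for which that protocol names ERαflox/flox mice. Neither the promoter that drove Cre nor the presence of Cre in controls is stated in the labels. The labels call the arrays biological replicates, while the protocol speaks of pooled tissue, so p-values measure the spread between these arrays, which may not be the spread between mice.

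A muscle fibre contracts when calcium leaves the sarcoplasmic reticulum through the ryanodine receptor and binds troponin, which shifts tropomyosin on the actin filament and lets myosin heads pull. Fast, slow and developing fibres build the same filaments from different isoforms, each from its own gene. In the head, muscle lies directly over parts of the skull bones, and the sarcomere genes are background markers of muscle cells rather than of bone cells.

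Esr1, the gene of ERα, was read by 3 probe sets. The brightest had levels, as log2(signal + 16) after quantile normalisation, of 6.97, 6.89 and 6.80 on the 3 control arrays and 6.63, 6.60 and 6.82 on the 3 knockout arrays, a difference of -0.20 (limma adjusted p = 0.572). The dimmest, under the filter, had 5.15, 4.82 and 4.98 in control and 4.09, 4.09 and 4.17 in knockout, and the third differed by -0.13. The labels do not say which part of Esr1 was deleted, so these values do not check them. The median deposited signal of an array lay between 18.7 and 28.6, and between 38.6% and 46.9% of its signals were under 16. With 3 arrays a genotype, their number limits the precision.

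Muscle transcripts were bright on control replicates 1 and 3, intermediate on the knockout arrays and lowest on control replicate 2. That last array was the lowest of the 6 for 37 of 42 genes, whereas it was the lowest for 19.8% of all 18193 genes. Control replicates 1 and 3 held the highest value for 41 of 42 genes, against 37.9% of all genes, and the exception was Asb5. The summed deposited signal of the 42 probe sets was 49727, 2289 and 41377 on control replicates 1, 2 and 3, and 8509, 8299 and 28440 on knockout replicates 1, 2 and 3, which is 0.557%, 0.0284%, 0.552%, 0.0991%, 0.0993% and 0.269% of all signal on the array. The highest and the lowest sum were thus both in the control group. In RNA of many cells, fewer muscle cells and less muscle RNA per cell cannot be told apart.

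**Figure D1:**
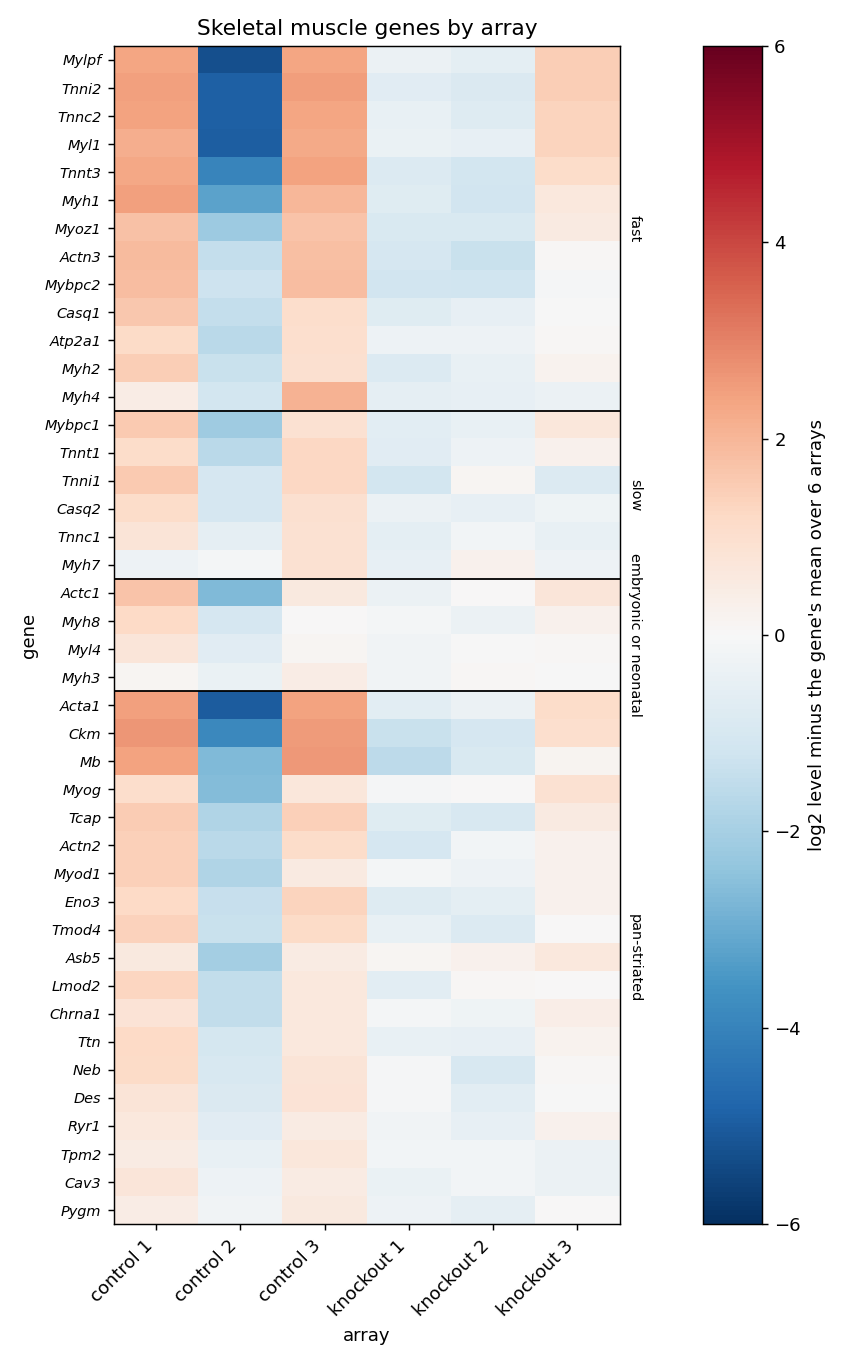
Log2 level of each of the 42 muscle genes (rows, by isoform class) on each of the 6 arrays (columns), as the difference from the gene's mean over the arrays; red is above and blue below. Control 2 is the bluest column, lowest for 37 of 42 genes, control 1 and control 3 are mostly red, and knockout 3 lies above knockout 1 and knockout 2 for 35 genes.

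In the levels, log2(signal + 16), the 16 is a constant that damps noise in dim signals. A signal of 0 gives 4, so a level near 4 is the floor. Signals are the deposited linear values, before quantile normalisation, and are listed in the order of replicates 1, 2 and 3. The median signal was 28.6 on knockout replicate 3 and 18.7 on control replicate 3, so the order of arrays can differ between signals and levels. The gap of control replicate 2 is its log2 level minus the mean of the other 2 controls. Over the 42 genes the gap had a median of -2.66, a 6.30-fold lower level, and ran from -7.65 to -0.42, while the median over all genes was 0.01. It was below -1 for 38 of 42 genes, against 1.96% of all genes, and below -5 for 9. The signal of control replicate 2 was under 16 for 24 of 42 genes, so for these the size of the gap is bounded by the added constant. On control replicate 1 that held for 1 gene, on control replicate 3 for 0, and on knockout replicates 1, 2 and 3 for 10, 8 and 3.

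The arrays of the knockout group differed among themselves in the same genes. Knockout replicate 3 was above both other knockout arrays for 35 of 42 genes, against 33.4% of all genes. Its gap from the other knockout arrays had a median of 0.66, and those of knockout replicates 1 and 2 were -0.48 and -0.39. The median SD over 3 arrays was 1.57 in control and 0.50 in knockout for the muscle genes, against 0.19 and 0.14 for all genes, so muscle genes were among the more variable genes within both genotypes.

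The promoters of 4 genes are shown because control replicate 2 was the lowest array for each of them, while they hold different muscle motifs. Each sequence is the 250 bases before the annotated start in RefSeq (GRCm38.p6), read 5′ to 3′ on the gene's strand. Capitals mark the motifs searched on both strands: the E-box CANNTG, the form of site that MyoD and related factors bind, its subtype CAGCTG, the CArG box of serum response factor, the motif of MEF2 factors, and the TATA box as TATAAA. Every CAGCTG is also counted as an E-box, and TATAAA can overlap the MEF2 motif. Mylpf (chr7:127211358-127211607, plus strand) encodes a fast myosin light chain and had the widest gap in level. Acta1 (chr8:123894776-123895025, minus strand) encodes skeletal actin, Chrna1 (chr2:73580339-73580588, minus strand) a subunit of the acetylcholine receptor and Casq2 (chr3:102086165-102086414, plus strand) a calcium store protein.
Mylpf: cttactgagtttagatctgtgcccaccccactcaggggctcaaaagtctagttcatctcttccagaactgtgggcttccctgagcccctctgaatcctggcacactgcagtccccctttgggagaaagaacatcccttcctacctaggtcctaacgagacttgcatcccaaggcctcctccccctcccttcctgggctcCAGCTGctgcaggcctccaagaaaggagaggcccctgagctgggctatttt
Acta1: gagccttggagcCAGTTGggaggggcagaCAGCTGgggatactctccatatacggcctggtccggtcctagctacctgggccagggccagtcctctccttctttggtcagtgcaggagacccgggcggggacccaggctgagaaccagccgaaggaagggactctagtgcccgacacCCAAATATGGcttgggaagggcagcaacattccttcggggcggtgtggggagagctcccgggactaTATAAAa
Chrna1: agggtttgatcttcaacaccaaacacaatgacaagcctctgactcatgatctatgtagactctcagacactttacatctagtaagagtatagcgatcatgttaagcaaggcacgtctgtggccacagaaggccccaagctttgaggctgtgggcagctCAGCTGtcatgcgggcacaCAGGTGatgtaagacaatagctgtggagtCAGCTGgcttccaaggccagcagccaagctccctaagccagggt
Casq2: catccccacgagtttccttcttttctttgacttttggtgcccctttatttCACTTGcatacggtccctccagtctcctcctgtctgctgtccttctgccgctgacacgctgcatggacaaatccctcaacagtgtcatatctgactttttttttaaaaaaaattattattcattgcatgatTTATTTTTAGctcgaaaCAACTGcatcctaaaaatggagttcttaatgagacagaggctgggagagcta

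Mylpf holds CAGCTG 51 bases before the start. Acta1 holds it 221 bases before the start, with a CArG box at 73 and TATAAA at 7. Chrna1 holds CAGCTG at 92 and at 44 with another E-box between them, and Casq2 a MEF2 motif at 69 beside E-boxes at 200 and 52. Promoters were found for 35 of the 42 genes, in 41 windows, some of which overlap because a gene has several starts. The genes without one were Actn3, Myod1, Myoz1, Neb, Tcap, Tnni2 and Tnnt3. CAGCTG was in 17 of the 41 windows (41.5%), against 13.0% of 32851 windows of the same length. The E-box was in 35 windows (85.4%, against 66.2%), the MEF2 motif in 6 (14.6%, against 2.92%), the CArG box in 4 (9.76%, against 1.47%) and TATAAA in 8 (19.5%, against 12.4%). A match is a stretch of letters, not a shown binding site.

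Myosin heavy chains are the motors of the thick filament, and 5 of the 6 studied (Myh3, Myh2, Myh1, Myh4 and Myh8) lie next to each other on chromosome 11 with no other protein-coding gene between them. Their sequences are close, and how far a probe set of 1 chain reads the RNA of another was not tested. Myh1, a fast adult chain, had signals of 993, 2.6 and 579 in control and 87, 57.7 and 314 in knockout arrays. Myh2, the fast oxidative chain, had 112, 1.3 and 60.7 in control and 9, 15.5 and 45.6 in knockout arrays. Both were highest on control replicate 1 and near the floor on control replicate 2, with the knockout arrays between.

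Myh4, the fastest chain, had signals of 32.4, 0.3 and 116 in control and 7.7, 8.1 and 15 in knockout arrays, and was highest on control replicate 3. Myh8, the perinatal chain, had 67.6, 1.3 and 17.3 in control and 15.6, 11 and 34 in knockout arrays. Myh3, the embryonic chain, had 26.9, 11.8 and 30.8 in control and 16.4, 22.5 and 27.3 in knockout arrays. Both were lowest on control replicate 2. Myh7, the slow chain shared with the heart, had 3.7, 5.6 and 24.7 in control and 0.8, 11.6 and 4.4 in knockout arrays. Myh4, Myh8, Myh3 and Myh7 lay under the level filter and were not tested. Myh7 was lowest on knockout replicate 1, and the gap of control replicate 2 was -0.42 for Myh7, -0.71 for Myh3, -1.63 for Myh8 and -5.42 for Myh1.

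Myosin light chains stabilise the lever arm of the heavy chain. Mylpf, the fast regulatory light chain, had signals of 7592, 20.1 and 6393 in control and 1064, 902 and 4848 in knockout arrays. Its gap was -7.65, the widest of the 42 on this scale, and its size is set in part by the added 16. Myl1, the fast essential light chain, had 8609, 41.4 and 7954 in control and 1350.4, 1277 and 5749 in knockout arrays, a gap of -7.18. In both, every knockout array lay below control replicates 1 and 3 and far above control replicate 2. Myl4, the atrial and embryonic light chain, spread far less, with 179, 49.7 and 93 in control and 79.1, 89.4 and 128 in knockout arrays. Myosin-binding protein C, which sits on the thick filament, was read in its slow form Mybpc1 at 252, 3 and 127 in control and 39.3, 44.6 and 156 in knockout arrays. Its fast form Mybpc2 had 133, 0.4 and 108 in control and 1.6, 1 and 28.3 in knockout arrays. Mybpc2 was near the floor on control replicate 2 and on knockout replicates 1 and 2 alike, and was not tested.

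**Figure D2:**
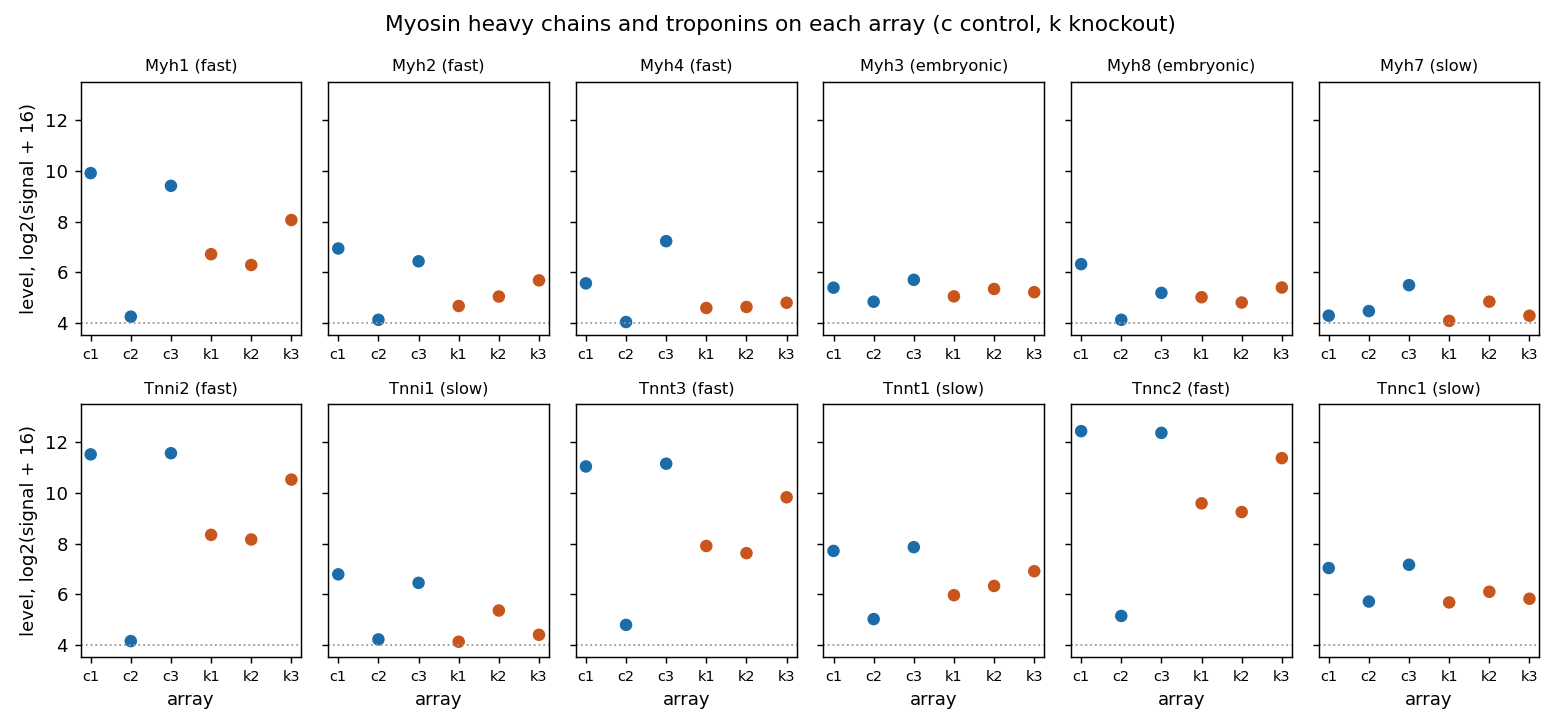
Level, log2(signal + 16), of 6 myosin heavy chains and of the fast and slow forms of troponin I, T and C on the 3 control (c1 to c3, blue) and 3 knockout arrays (k1 to k3, orange); the dotted line at 4 is the level of a signal of 0. In the fast troponins control 2 lies at 4.15 to 5.14 and the other controls above 11, with k1 and k2 below k3.

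Troponin is the calcium switch of the thin filament, with an inhibitory (I), a tropomyosin-binding (T) and a calcium-binding (C) subunit. Tnni2, fast troponin I, had signals of 3051, 1.6 and 2608 in control and 301, 256 and 1825 in knockout arrays. Tnnt3, fast troponin T, had 2169, 11 and 1961 in control and 219, 172 and 1128 in knockout arrays. Tnnc2, fast troponin C, had 5757, 18 and 4566 in control and 732, 568 and 3258 in knockout arrays. In level, knockout replicate 3 of these 3 genes stood nearer to the bright controls than to the other knockout arrays.

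Of the slow forms, Tnni1 and Tnnc1 had knockout replicate 2 highest in its group in level, and Tnnt1 had knockout replicate 3. Tnni1, slow troponin I, had 99.6, 2.3 and 61.6 in control and 1.3, 23 and 6.5 in knockout arrays, under the filter. Its knockout replicates 1 and 3 lay near the floor beside control replicate 2. Tnnc1, the slow and cardiac troponin C, had 121, 33.2 and 110 in control and 34.7, 48.9 and 52.4 in knockout arrays, with all 3 knockout arrays nearer to control replicate 2 than to the other controls. Tnnt1, slow troponin T, had 204, 15.4 and 189 in control and 45.7, 59.9 and 132 in knockout arrays, again with knockout replicate 3 highest in its group.

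Acta1, the actin of mature skeletal muscle, had signals of 7669, 24.8 and 6379.8 in control and 859.6, 1032 and 3647 in knockout arrays. Actc1, the cardiac actin that developing skeletal muscle also uses, had 1134, 33.7 and 419 in control and 243, 313 and 669.9 in knockout arrays. In level, knockout replicate 3 lay between control replicates 1 and 3 for Actc1 and below both for Acta1. Tpm2, a tropomyosin also made in smooth muscle, had 3308, 1534 and 3150.5 in control and 1939.8, 1925 and 2252 in knockout arrays, the highest signal of the 42 genes on control replicate 2. Of its 4 probe sets, the brightest had a gap of -1.04, and others had -1.34 and -1.19. The last stood apart at -3.21, with signals of 1730.3, 143 and 1276 in control and 285, 299.9 and 902 in knockout arrays. How far it reads other transcripts was not tested.

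At the Z-disc, where actin filaments are anchored, Actn3, the actinin of fast fibres, had 661, 44.4 and 528 in control and 70.1, 51.3 and 217 in knockout arrays. Actn2, its partner in all fibres, had 130, 1 and 83.6 in control and 9.8, 28.4 and 61.4 in knockout arrays. Myoz1, which ties actinin to calcineurin, had 625, 21.6 and 501 in control and 77.7, 74.4 and 312 in knockout arrays. In these 3 genes, control replicate 2 and knockout replicates 1 and 2 all lay under the other controls. Tcap, the titin cap, had 278, 11 and 218 in control and 42.5, 32.1 and 159.9 in knockout arrays. Ttn, the giant spring of the sarcomere, had 112, 9.5 and 58.9 in control and 23, 20.2 and 58.8 in knockout arrays. Neb, the ruler of the thin filament, had 57.2, 0.3 and 32.6 in control and 13.9, 0.5 and 22.5 in knockout arrays, under the filter. Control replicate 2 was the lowest array for all 3 of these scaffold genes. Des, the intermediate filament around the Z-disc, which smooth muscle shares, had 197, 45 and 173 in control and 95.5, 57.9 and 129 in knockout arrays. The filament-capping genes Tmod4 and Lmod2 had gaps of -2.61 and -2.44.

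Among the calcium genes, Atp2a1, the fast-fibre pump that refills the reticulum, had 122, 3.3 and 89.3 in control and 31, 29.8 and 60.5 in knockout arrays. Casq1, the fast calcium store protein, had 228, 11.3 and 121 in control and 28.7, 34.9 and 74.8 in knockout arrays. Casq2, its slow and cardiac form, had 333, 55.6 and 252 in control and 104, 88.2 and 147 in knockout arrays. All 3 knockout arrays of each lay below control replicates 1 and 3 and above control replicate 2. Ryr1, the calcium release channel, had 28.7, 1.3 and 20.1 in control and 8.2, 3.7 and 23.1 in knockout arrays, under the filter.

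Of the energy genes, Ckm, muscle creatine kinase, had 1889, 3.9 and 1473 in control and 99.1, 127 and 732 in knockout arrays. Mb, the oxygen carrier myoglobin, had 1195, 17.3 and 1134 in control and 56.6, 91.5 and 281 in knockout arrays. Eno3, the muscle enolase, had 789.8, 105 and 727 in control and 177, 199 and 502 in knockout arrays. Ckm and Mb had gaps of -6.46 and -5.16, and Eno3 of -2.64. Pygm, which breaks down glycogen, had 80.7, 38.5 and 74.5 in control and 38.1, 27.6 and 66.5 in knockout arrays. Its gap was -0.73, and its lowest array was knockout replicate 2.

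The last genes mark developing or activated muscle cells and the fibre membrane. Myog, a transcription factor of differentiating muscle, had signals of 552, 24 and 341 in control and 227, 231 and 593 in knockout arrays. Myod1, which sets the muscle lineage, had 186, 4.3 and 79 in control and 49.2, 39.5 and 91 in knockout arrays. Chrna1, the receptor subunit at the nerve contact, had 119, 10.3 and 85.5 in control and 50, 41.9 and 105 in knockout arrays. Control replicate 2 was the lowest array for these 3 genes. Asb5, an ankyrin protein linked to muscle precursor cells, had 279.7, 27.2 and 220.2 in control and 187, 196 and 343 in knockout arrays. In level, knockout replicate 3 was the highest array for Asb5 (8.14, 5.51 and 8.06 in control and 7.69, 7.80 and 8.17 in knockout arrays) and lay between control replicates 1 and 3 for Myog (9.08, 5.39 and 8.68 in control and 7.96, 8.02 and 8.92 in knockout arrays). Besides these, only Actc1 and Myh8 had that array above control replicate 1 or 3 in level. Cav3, a coat protein of muscle membrane pits, had 104, 35.9 and 69.8 in control and 35.1, 41 and 49 in knockout arrays, and its lowest array was knockout replicate 1.

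The comparison of genotypes asks which transcripts differ when osteocytes lack ERα. With all 6 arrays, none of the 34 tested muscle genes passed (0 in either direction, at 0.05 after Benjamini-Hochberg adjustment in limma), and 0% of the 10916 genes did. At an unadjusted p under 0.05, 1 of the 34 passed, Cav3, which was lower in knockout, as were 4.69% of all tested genes. In either direction, 1151 of the 10916 tested genes had such a p. The adjusted p ran from 0.472 for Cav3 to 0.998 for Chrna1. Of the 42 genes, 34 lay lower and 8 higher in knockout, and 52.2% of all genes lay lower. The median difference was -0.50, against -0.01 over all genes tested, and moved between -1.47 and 0.04 when 1 array was left out. Groups overlapped for 42 of 42 genes, whereas 14.5% of all genes had separated groups, 7.06% with knockout lower and 7.45% with knockout higher.

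The widest difference among the tested genes was that of Mb, -1.57 ± 1.31 (SE, limma adjusted p = 0.704). Its mean level was 8.55 ± 2.98 in control and 6.98 ± 0.86 in knockout (SD, n = 3). Actn3 differed by -1.50 ± 0.87 and Tnnc1 by -0.77 ± 0.37 (SE, limma adjusted p = 0.578 and 0.512). For Mylpf the mean was higher in knockout, 10.67 ± 1.14 against 10.32 ± 4.42 (SD, n = 3), and lower by -2.20 ± 0.55 (SE) once control replicate 2 was left out. The other genes with a higher knockout mean were Asb5 (0.65), Myog (0.58), Myl1 (0.30), Actc1 (0.27), Tnnc2 (0.09), Acta1 (0.08) and Chrna1 (0.01). With all 6 arrays, none of these differences passed the limma test.

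These values turned on control replicate 2. Without it, 42 of 42 genes lay lower in knockout, against 51.2% of all genes, with a median of -1.39, a 2.62-fold lower level. All 3 knockout arrays then lay below both remaining controls for 37 of 42 genes, against 15.9% of all genes. By limma 16 of the 34 tested genes were called lower and 0 higher, against 1.88% and 0.788% of the 10916 tested genes. Leaving out any of the other 5 arrays gave 0 calls among them. This fit has 2 control arrays, and the low muscle signal of the array left out was known when these genes were listed.

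**Figure D3:**
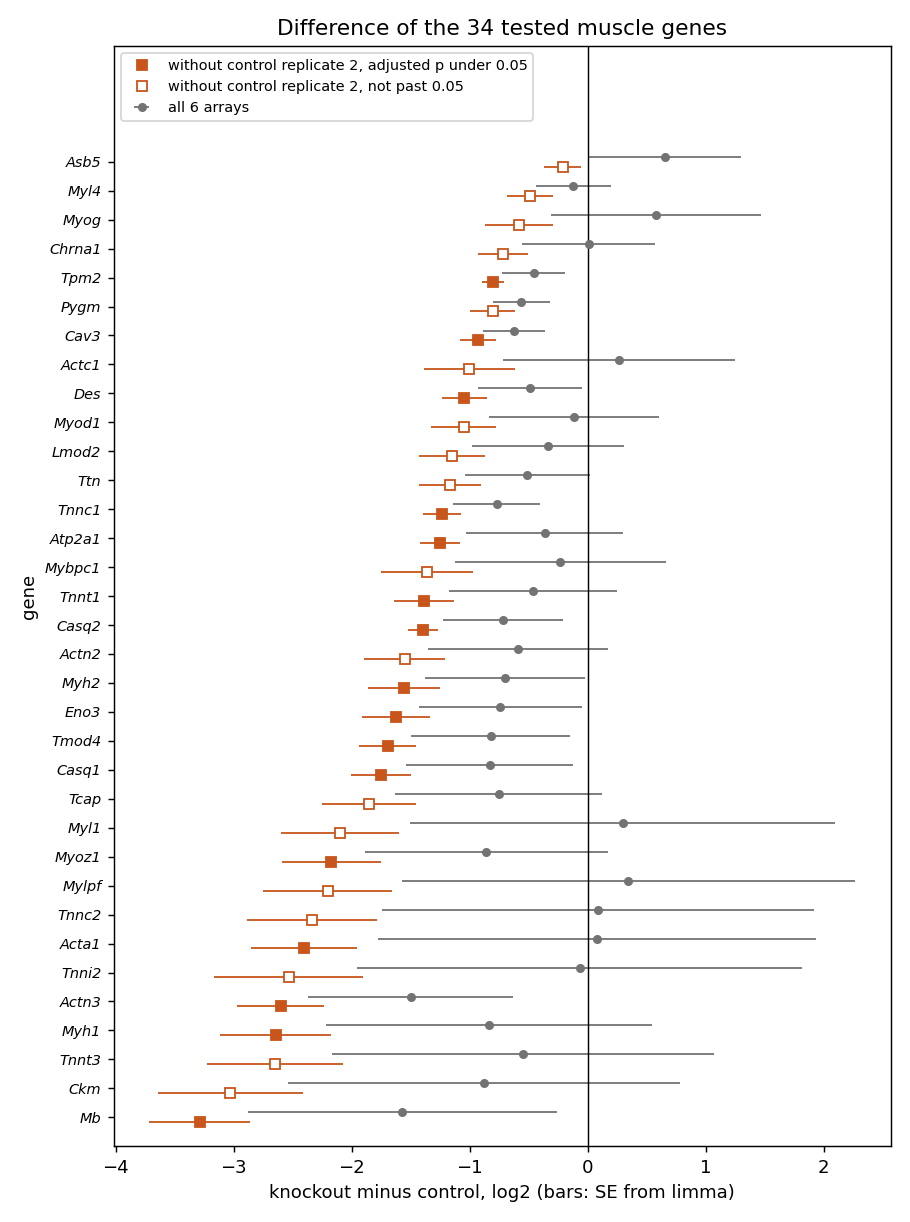
Knockout minus control (log2, with the standard error from limma) for the 34 tested muscle genes, with all 6 arrays (grey circles) and without control replicate 2 (orange squares, filled where the adjusted p was under 0.05). All grey points have an adjusted p of 0.472 or more, and all orange points lie below 0, with 16 filled.

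The 16 genes are given here by part of the fibre, and none was a light chain or a myogenic factor. They were Myh1 and Myh2 among the motors, Acta1, Tpm2, Tnnt1, Tnnc1, Actn3, Myoz1, Des and Tmod4 of the thin filament and Z-disc, Atp2a1, Casq1 and Casq2 of the calcium genes, Mb and Eno3 of the energy genes, and Cav3. Myh2 had passed the filter through its control arrays alone. All 16 calls rest on leaving out an array known beforehand to be low in these genes, so they are no support. Without control replicate 2, Casq2 differed by -1.40 ± 0.12 (SE, limma adjusted p = 0.00581), a 2.63-fold lower level. Mb differed by -3.29 ± 0.43 (SE, limma adjusted p = 0.014), 9.78-fold lower, and Acta1 by -2.41 ± 0.45 (SE, limma adjusted p = 0.0399). Ckm had a difference of -3.03 ± 0.61 and Tnni2 of -2.53 ± 0.63 (SE), larger than that of Casq2, yet did not pass (limma adjusted p = 0.0536 and 0.0988). In both, knockout replicate 3 stood far above the other knockout arrays.

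By class, the 11 tested fast genes had a median of -2.20 without control replicate 2, with 6 called lower, Myh2 among them. The 4 slow genes had -1.37 with 3 called, the 17 shared genes -1.15 with 7 called, and the 2 embryonic genes, Actc1 and Myl4, -0.75 with 0 called. With all arrays these medians were -0.54, -0.59, -0.51 and 0.07. The smallest differences without that array were those of Asb5 (-0.21, limma adjusted p = 0.569), Myl4 (-0.49, 0.271), Myog (-0.58, 0.372) and Chrna1 (-0.72, 0.154), which were not called. Whether classes differ from each other was not tested, and the floor of the scale limits how far a dim gene can lie below a bright one.

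Other probe sets of the same genes were read as well. Among the 42 genes 13 had more than 1 probe set, with 22 further probe sets. Of the 5 whose mean level was above the filter, control replicate 2 was the lowest array in 5 and the knockout mean without it was lower in 5. They include the further Tpm2 probe sets given above and a Tnni2 probe set. The latter had signals of 1166, 1.2 and 745 in control and 126, 123 and 557 in knockout arrays. How far these probe sets read other transcripts was not tested. Over all 22, 20 were lower without control replicate 2 and 9 had that array lowest, against 51.2% and 19.8% of all genes.

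Muscle genes outside the 42 were read from lists of their own. Over all 10916 tested genes, 1151 had an unadjusted p under 0.05 with all arrays, and 1.88% were called lower without control replicate 2. Calls in that fit rest on leaving out an array known to be low in muscle genes, so they are no support in any list. Among 17 tested genes of other sarcomere proteins (29 of 31 with a probe set), 0 were called with all arrays (1 at an unadjusted p under 0.05) and 10 were called lower without control replicate 2. Their level, the mean of the tested genes after each was centred over the arrays, was 0.93, -1.12 and 1.00 in control and -0.59, -0.31 and 0.10 in knockout arrays. Myom1, an M-band protein, differed by -0.63 ± 0.27 (SE, limma adjusted p = 0.472), and by -0.96 without that array (adjusted p = 0.0137). Myl3, the slow essential light chain, differed by -0.72 ± 0.37, and Tpm3, a tropomyosin that non-muscle cells also make, by 0.21 ± 0.10 (SE). The non-muscle actinins Actn1 and Actn4 were in the list, with differences of -0.12 and 0.01.

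Other genes of excitation and calcium handling, 15 tested of 22 listed, had 3 called lower without control replicate 2 and 0 with all arrays (2 unadjusted). Pln, the inhibitor of the calcium pump of slow, cardiac and smooth muscle, had signals of 112, 26.5 and 104 in control and 27.1, 20.2 and 33.5 in knockout arrays. It differed by -1.14 ± 0.39 (SE, limma adjusted p = 0.407), and by -1.65 without control replicate 2 (limma adjusted p = 0.00581). Its groups were separated in level only, since the signal of control replicate 2 lay below those of knockout replicates 1 and 3. Srl, a calcium-binding protein of the reticulum, and Jph2, which joins reticulum and surface membrane, were the others called, at -1.78 and -0.94. Atp2a2, the pump isoform that most cells use, had 1724, 1383 and 1713 in control and 1706, 1809.7 and 2079 in knockout arrays, and control replicate 2 stood much nearer to the other controls than in Atp2a1.

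Among 14 tested genes of muscle energy supply, 4 were called lower without control replicate 2 and 0 with all arrays (1 unadjusted). Ampd1, muscle AMP deaminase, had the smallest p of them, with a difference of -0.72 ± 0.23 (SE, limma adjusted p = 0.394) and separated groups. Of 8 tested genes of the neuromuscular junction and dystrophin complex, 0 were called in either limma fit (1 unadjusted with all arrays). Genes of muscle progenitors and fusion had 7 higher and 6 lower of 13, with a median of 0.01, and 1, Itga7, was called lower without control replicate 2. With all arrays 0 were called and 3 had an unadjusted p under 0.05: Mef2c, a muscle and bone factor, was lower (-0.46 ± 0.09, SE, limma adjusted p = 0.203), while Eya1 (0.52), a cofactor of muscle precursors, and the adhesion protein Ncam1 (0.39) were higher, all with separated groups. Pax7, the factor of satellite cells, had signals of 142, 7.6 and 45.4 in control and 35.3, 26.9 and 110.1 in knockout arrays. Myf5, an early myogenic factor, had 298, 4.1 and 159 in control and 90.2, 103 and 238 in knockout arrays. Both were lowest on control replicate 2 and differed between genotypes by -0.02 and 0.39. Pax3, a factor of muscle precursors, had signals of 3.0 to 24.4.

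**Figure D4:**
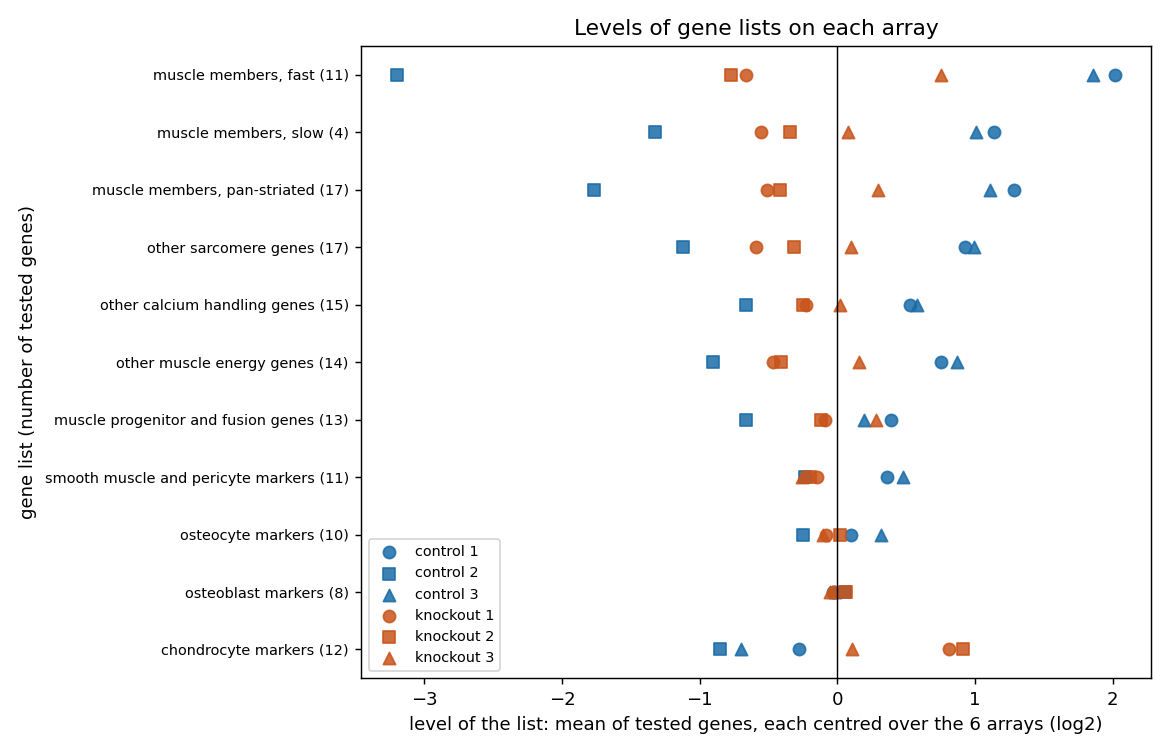
Level of gene lists on each array (log2, mean of the tested genes after centring each over the 6 arrays; circles, squares and triangles are replicates 1, 2 and 3, blue control and orange knockout). Skeletal muscle lists spread widely with control 2 lowest, osteoblast markers stay within -0.05 and 0.07, and chondrocyte markers lie higher in knockout.

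Markers of other cells were read on the same arrays. The cardiac markers Myh6, Myl7 and Tnni3, the defining myosins and troponin of heart muscle, had signals between 0.6 and 6.2 on all 6 arrays. Of 9 cardiac genes with a probe set, 2 passed the filter, Tnnt2 and Mybpc3, and their level was 0.26, -0.44 and 0.39 in control and 0.01, -0.15 and -0.06 in knockout arrays, lowest on control replicate 2. Smooth muscle and pericyte markers had a level of 0.36, -0.24 and 0.48 in control and -0.14, -0.20 and -0.26 in knockout arrays. Of the 11 tested, 10 lay lower in knockout and 0 were called with all arrays (4 unadjusted). Without control replicate 2, 5 were called lower, against 1.88% of all tested genes. Acta2 and Myh11, smooth muscle actin and myosin, had levels of 12.98, 11.62 and 13.01 in control and 12.15, 12.22 and 12.17 in knockout arrays (Acta2), and of 10.10, 8.81 and 10.71 in control and 9.08, 8.76 and 8.83 in knockout arrays (Myh11). Rgs5, a pericyte gene, had 13.18, 13.09 and 13.18 in control and 12.66, 12.56 and 12.46 in knockout arrays, so it was not low on control replicate 2. The part of these cells in the muscle values was not tested, though Des and Tpm2 are shared with them.

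Osteocyte markers had a level of 0.10, -0.25 and 0.31 in control and -0.08, 0.02 and -0.10 in knockout arrays, and osteoblast markers -0.03, 0.06 and -0.02 in control and -0.02, 0.07 and -0.05 in knockout arrays, a far smaller spread than that of the muscle genes at 1.50, -2.17 and 1.29 in control and -0.55, -0.50 and 0.42 in knockout arrays. Dmp1, whose promoter drove the sorting reporter, had levels of 12.97, 12.67 and 12.90 in control and 12.41, 12.55 and 12.69 in knockout arrays, and Phex, an osteocyte peptidase, 10.96, 10.89 and 11.03 in control and 10.93, 10.99 and 10.90 in knockout arrays. Dmp1 and Phex were thus bright on all 6 arrays, while Fgf23, the phosphate hormone of osteocytes, had signals of 0.5 to 10.4. Of the 10 tested osteocyte markers, 7 lay lower and 3 higher in knockout. Chondrocyte markers had -0.28, -0.85 and -0.70 in control and 0.81, 0.91 and 0.11 in knockout arrays. Of the 12 tested, 10 had an unadjusted p under 0.05 and 10 had separated groups, all higher in knockout, and 4 were called higher without control replicate 2. Endothelial markers had -0.07, -0.17 and 0.25 in control and 0.16, -0.01 and -0.16 in knockout arrays, and macrophage and osteoclast markers -1.07, 0.32 and 0.25 in control and 0.33, 0.32 and -0.15 in knockout arrays. Tendon and fibroblast markers had 0.37, -0.47 and 0.18 in control and -0.11, 0.07 and -0.04 in knockout arrays. The 2 tested Schwann cell and nerve markers had -0.14, -0.01 and 0.20 in control and -0.03, 0.02 and -0.04 in knockout arrays, and the 1 tested erythroid marker, Alas2, -0.06, 0.43 and -0.22 in control and 0.31, -0.27 and -0.17 in knockout arrays. With all arrays 0 genes of these lists were called by limma. An unadjusted p under 0.05 was found for 2 osteocyte, 2 osteoblast, 2 endothelial, 1 macrophage or osteoclast and 2 tendon markers. Of all 10916 tested genes, 1151 had such a p. Without control replicate 2, 2 osteocyte, 2 endothelial and 2 tendon markers were called lower, and 1 osteoblast and 1 tendon marker higher. Calls in that fit were thus not confined to muscle genes, and over all tested genes 1.88% were called lower and 0.788% higher.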

How the data were processed

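The values deposited by the authors are linear intensities, 1 for each probe set on each array. The submitters' processing notes name GCOS. How background, probe summary and scaling were handled is not stated in the labels. After 64 control probe sets were removed from 45101, 34945 had 1 gene in the platform annotation, 932 had several and 9160 are unnamed here. Of the 34945 probe sets, 34741 had their gene identifier in the RefSeq table and took its symbol. From the intensities log2(signal + 16) was computed and quantile normalised, because array medians differed by 0.36 (log2). The brightest probe set stood for a gene. Of 18193 genes, the 40% with the lowest mean level (7277 genes, under 5.37) were not tested. Knockout and control were compared in limma 3.58.1 (R 4.3.3, lmFit, eBayes with trend, 2-sided, Benjamini-Hochberg, 0.05). Leaving out an array kept the tested genes. All 42 members could be named; signals on 6 arrays are given for most. In other lists the rule was to name the first 3 markers or up to 3 genes with the smallest p. Some of these are not named, and Phex and Tnni3 were named outside that rule. Atp2a2, Actn1, Actn4, Srl, Jph2, Itga7, Tnnt2, Mybpc3, Fgf23, Alas2 and the genes in the closing observations were chosen after their values were seen. Members, lists and tests were chosen with earlier results of these data known. The alternatives were other scalings, pseudocounts, filters, probe set rules and tests, the replicate number as a block, and each array left out. Protein sequences were not used here.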

Additional observations from a re-analysis of the deposited data

How the results depend on the processing

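With 1 array left out, calls among the muscle genes ran from 0 to 16 lower and stayed at 0 higher, calls over all tested genes from 0 to 205 lower and 0 to 86 higher, the median difference from -1.47 to 0.042, and genes with separated groups from 0 to 37. The values of 16, 205, 86, -1.47 and 37 came without control replicate 2 and that of 0.042 without control replicate 1. The deposited scaling gave 30 higher calls over all genes, 0 of them muscle genes, and moved the median of all tested genes to 0.14. In the other alternatives without array removal 0 muscle genes were called and the median stayed between -0.75 and -0.31. Whether arrays of the same number form pairs is not stated in the labels. Same-numbered control and knockout arrays had correlations of deviations of -0.38, 0.10 and -0.04. Those of different numbers ran from -0.34 (control 2 with knockout 3) to 0.42 (control 1 with knockout 3). With 3 arrays centred within each genotype, such values cannot decide whether arrays were paired. The fit with the replicate number as a block called 0 muscle genes and 0 genes in all, with the same median of -0.50. Of the 34 tested muscle genes, 16 kept their direction in each of the 16 alternatives in which they were tested; some were not tested under a stricter filter, a pseudocount of 1 or the mean of all probe sets. The direction turned with the deposited scaling for Myl4 (0.017) and Tnni2 (0.054), with median scaling for Chrna1 (-0.012), with a pseudocount of 1 for Tnni2 (0.79), Mybpc1 (0.23) and Myod1 (0.26), and with a pseudocount of 64 for Mylpf (-0.0086), Acta1 (-0.23), Tnnc2 (-0.26) and Chrna1 (-0.075). Array weights turned Myl1 (-0.52), Mylpf (-0.53), Acta1 (-0.76), Actc1 (-0.12), Tnnc2 (-0.74) and Chrna1 (-0.24). The cause was not tested. With an array left out the sign turned in Myl1 (-2.10 to 1.52), Mylpf (-2.20 to 1.63), Myl4 (-0.49 to 0.21), Acta1 (-2.41 to 1.34), Actc1 (-1.003 to 1.19), Myh1 (-2.65 to 0.19), Tnnt1 (-1.39 to 0.035), Tnnt3 (-2.65 to 0.53), Tnnc2 (-2.34 to 1.31), Tnni2 (-2.53 to 1.18), Ckm (-3.03 to 0.22), Atp2a1 (-1.26 to 0.12), Mybpc1 (-1.36 to 0.50), Myog (-0.58 to 1.26), Myod1 (-1.05 to 0.56), Chrna1 (-0.72 to 0.42), Asb5 (-0.21 to 1.10) and Lmod2 (-1.15 to 0.23). Signals under 16 lie near the floor, where differences between arrays are compressed.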

Other observations

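Some muscle genes outside the 42 had wide ranges over the arrays. They were picked after their values were seen. Pvalb, the calcium buffer of fast fibres, had signals of 1940.5, 21.8 and 2128 in control and 179.8, 97.5 and 828 in knockout arrays. Smpx, a small muscle protein, had 1033, 1 and 938 in control and 100.2, 99.1 and 587 in knockout arrays. Cox8b, a muscle subunit of cytochrome c oxidase, had 371, 1 and 408 in control and 56.4, 44.7 and 253 in knockout arrays. In these 3 genes, control replicate 2 was the lowest array and knockout replicates 1 and 2 lay below knockout replicate 3. Myot, a Z-disc protein, had 504, 5.8 and 366 in control and 48, 41.8 and 182 in knockout arrays. Sln, an inhibitor of the calcium pump, had 49.8, 0.5 and 28 in control and 20.8, 31.2 and 54.1 in knockout arrays. Myot was called lower without control replicate 2 (-2.45, limma adjusted p = 0.0247), and Pvalb was not (-3.11, limma adjusted p = 0.0517). Both values rest on leaving out an array known to be low in muscle genes, so they are no support.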
